A study of Mus musculus with 16 samples.

Results

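The genes described here encode enzymes and transporters that process foreign compounds, retinoids and steroids. They were taken by name: every distinct gene of the 4 deposited tables whose symbol began with Cyp, Ugt, Sult, Ces, Aldh, Adh, Gst, Abc, Akr, Fmo or Hsd and its family number or letter. The pattern matched 86 names and Gsta3 was set aside, which left 85 members among 5171 distinct genes. GENCODE annotates all 85 as protein coding. They were sorted by textbook role into retinoid metabolism (4 genes), steroid and sterol metabolism (13), xenobiotic cytochrome P450 and flavin monooxygenases (13), fatty acid and eicosanoid cytochrome P450 (8), carboxylesterases (9), UDP-glucuronosyltransferases (3), cytosolic sulfotransferases (4), glutathione transferases (9), aldehyde and carbonyl metabolism (6) and ABC transporters (16).

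RNA was sequenced from whole tissue of the central part of the colon of C57BL/6 male mice. The genotypes were wild type (WT) and a knockout (KO) in which a conditional allele of Smarcad1, a chromatin remodelling ATPase, was deleted in the intestinal epithelium by Cre recombinase under the villin (Vil) promoter, a line that came from a single targeted embryonic stem cell clone. The control groups held 3 WT and 3 KO libraries, and the colitis groups held 5 WT and 5 KO libraries from mice that drank 1% dextran sodium sulphate (DSS), which injures the colon lining, for 15 days. Mice in every group were given an enriched microbiota through bedding transfer and shared air with donor animals, so no comparison is free of that treatment. The ages of the mice, and whether the WT mice carried the conditional allele or Cre, are not given in the sources used here. Cre under this promoter acts in epithelium only, so the other cells of the tissue kept the gene.

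The gut wall meets dietary and microbial compounds through a set of enzymes that work in sequence. Cytochrome P450 enzymes, flavin monooxygenases, dehydrogenases and esterases add or expose reactive groups, transferases then attach glucuronic acid, sulfate or glutathione, and ABC transporters pump products out of the cell. Relatives in the same families make and destroy retinoic acid, glucocorticoids, sex steroids and cholesterol, and many of these genes are most active in differentiated absorptive cells.

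Each table lists the genes with an adjusted p-value under 0.05 in one DESeq2 comparison made by the authors, beside the authors' mean log2 RPM (reads scaled to library size) of all 4 groups. A member is said below to have risen or fallen only if it was listed. The values of single libraries were not used, so the means carry no SD, and every size given is a difference of means on the log2 RPM scale. By group, libraries held 10.1 M (WT) and 9.77 M (KO) reads in control and 8.005 M (WT) and 9.87 M (KO) in colitis as geometric means. The floor used here, 3 reads in each library, corresponded to −1.75 and −1.70 log2 RPM in the control groups and to −1.42 and −1.72 in the colitis groups. The means of 2 members, Ces1b and Cyp2j13, touched this floor. For Smarcad1 itself the control means were 5.77 (WT) and 4.59 (KO) log2 RPM and the colitis means 5.68 (WT) and 4.55 (KO). Other cells of the KO tissue keep the gene, and the deletion leaves some exons in place. The series' design text names small intestine while the labels name colon. The colon markers Car1 (11.74 log2 RPM in WT control) and Aqp8 (10.76) were abundant.

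In WT, colitis lowered 45 of the 85 members (52.9%) and raised 15 (17.6%). Over all 5171 genes, 26.4% were lower and 36.6% higher in the same table, 63.1% in either direction. In KO, 40 members (47.1%) fell and 20 (23.5%) rose, against 33.6% and 44.8% of all genes, or 78.4% in either direction. These backgrounds cover genes listed in at least 1 table and not every gene expressed. The same shares are the background for the counts by role below. Both colitis tables held 36 of the members (42.4%, against 42.2% of all genes), 22 lower and 14 higher in each. A further 24 members (28.2%) were in the WT table alone, against 20.9% of all genes, and 24 (28.2%) in the KO table alone, against 36.2%. Only Cyp2d9 was in neither. Over the 85 members the median of the change with colitis was −0.77 (WT) and −0.56 (KO), where the medians of all 5171 genes were 0.13 and 0.19. Taken out of the log scale and added up, the members came to 17819 RPM in WT control and 10210 RPM in WT colitis, 1.75-fold less. The same sum was 18665 RPM in KO control and 12105 RPM in KO colitis, 1.54-fold less.

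In this bulk tissue, fewer cells of a type and less RNA per cell cannot be told apart. Of 7 listed colonocyte markers, the absorptive cells of the colon, the sum went from 13662 to 6614 RPM with colitis in WT and from 13343 to 6601 RPM in KO, with 5 of the 7 lower in WT, 4 lower in KO and 1, Ms4a12, higher in both. Leukocyte markers moved the other way: 8 of 9 were in the tables, all 8 higher in both genotypes, and their sum went from 262 to 583 RPM in WT and from 263 to 556 RPM in KO. The fibroblast sum (5 of 6 markers in the tables) went from 2555 to 4935 RPM in WT and from 2479 to 3670 RPM in KO. Smooth muscle (2 of 6 markers) and goblet cell (1 of 5) sums were lower in colitis in both genotypes. Of 9 markers of all epithelium and 3 of endothelium, 0 were in the tables. The part of these markers in the changes of the members was not tested.

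**Figure D1:**
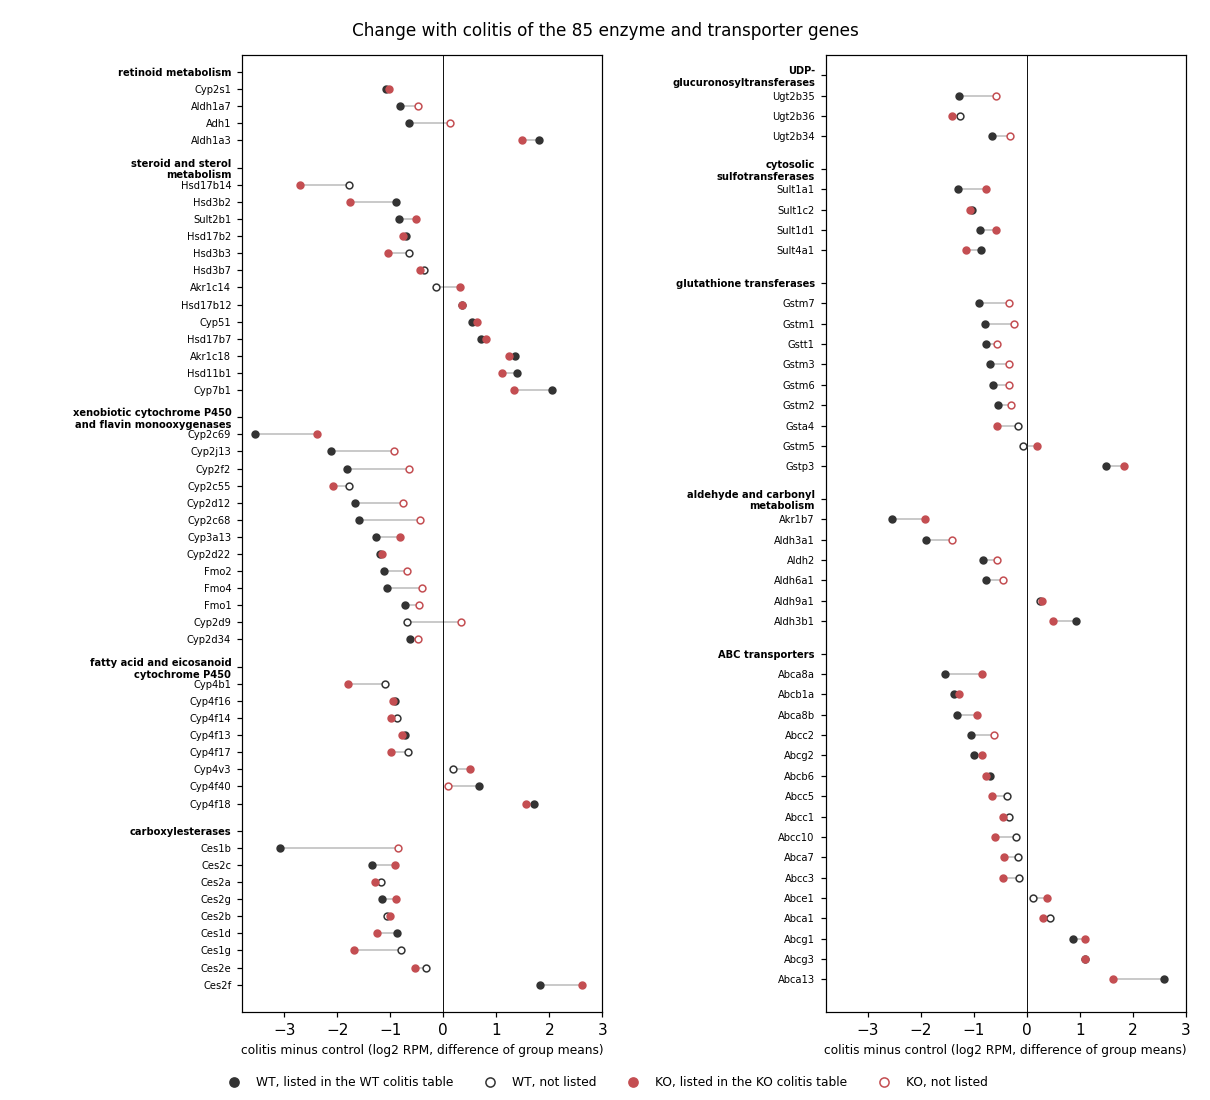
Colitis minus control in log2 RPM (difference of the authors' group means, horizontal axis) for each of the 85 members, grouped by role. Black points are WT and red points KO, filled where the gene was listed in that genotype's colitis table, and grey lines join the genotypes. Most points lie left of 0, and the steroid and sterol group is split between both sides.

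Retinoid metabolism was represented by 4 members. Adh1, an alcohol dehydrogenase that oxidises retinol and ethanol, averaged 10.53 log2 RPM in WT control, 10.67 in KO control, 9.89 in WT colitis and 10.80 in KO colitis. It fell in WT (−0.64) and was not listed in KO, where the difference was 0.12. WT colitis stood below the other 3 means, which ran from 10.53 to 10.80. Aldh1a3, which makes retinoic acid from retinaldehyde, went the other way. Its means were 3.59 in WT control, 3.37 in KO control, 5.40 in WT colitis and 4.87 in KO colitis, and it rose in both genotypes, by 1.81 and 1.49. Cyp2s1, a P450 able to oxidise retinoic acid, fell by 1.08 in WT and 1.03 in KO. Aldh1a7, a rodent relative of the retinaldehyde dehydrogenases, fell in WT (−0.82) and was not listed in KO (−0.47).

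Other genes that handle retinoids were taken from a list of 19, of which 8 were in the tables. In WT 3 of them fell and 5 rose, and in KO 2 fell and 2 rose. Lrat, which esterifies retinol for storage, fell by 2.41 in WT and 2.10 in KO. Rbp2, a retinol-binding protein of absorptive cells, fell by 1.52 and 1.30. Dhrs9, a retinol dehydrogenase, rose in WT (1.44) and was not listed in KO (0.75). Crabp1, which binds retinoic acid, fell in WT (−1.40) and was not listed in KO (−1.22). Isx, a repressor that responds to retinoids in the gut, was named after its values were seen. It averaged 6.10 log2 RPM in WT control, 6.20 in KO control, 7.003 in WT colitis and 6.06 in KO colitis, rose in WT (0.91), was not listed in KO (−0.14), and was listed as lower in KO than in WT during colitis (−0.94). In both genotypes Lrat and Rbp2 were lower and Aldh1a3 was higher, but Adh1 and Aldh1a7, also of the retinoid group, fell in WT. The retinoid genes thus had no common direction.

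The steroid and sterol group had no common direction. In WT 3 of 13 members fell and 6 rose, and in KO 6 fell and 7 rose, with medians of −0.14 and 0.31. The 6 that rose in both genotypes act at different points. Cyp51 and Hsd17b7, enzymes of cholesterol synthesis, rose by 0.55 and 0.72 in WT and by 0.64 and 0.81 in KO. Hsd17b12, which also serves fatty acid elongation, rose by 0.35 in each genotype. Hsd11b1, which regenerates active glucocorticoid, averaged 3.23 log2 RPM in WT control, 3.11 in KO control, 4.62 in WT colitis and 4.21 in KO colitis. It rose by 1.39 in WT and 1.10 in KO. Cyp7b1, an oxysterol hydroxylase, averaged 0.62, 0.53, 2.68 and 1.86 log2 RPM in the same order, a rise of 2.06 in WT and 1.33 in KO. Akr1c18, which inactivates progesterone, rose by 1.36 and 1.24. Akr1c14, a 3-alpha hydroxysteroid dehydrogenase, rose in KO (0.31) and was not listed in WT (−0.14).

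The members of this group that fell included genes for 3-beta hydroxysteroid dehydrogenases. Hsd3b2 averaged 5.60 log2 RPM in WT control, 5.92 in KO control, 4.72 in WT colitis and 4.15 in KO colitis, and it fell in both genotypes (−0.88 and −1.77). Hsd3b3 fell in KO (−1.04) and was not listed in WT (−0.65). Hsd17b2, which inactivates oestradiol and testosterone, fell by 0.70 in WT and 0.75 in KO. Sult2b1, which adds sulfate to cholesterol and other sterols, fell by 0.83 and 0.52. Hsd17b14, a hydroxysteroid dehydrogenase, had the largest fall of the group in KO. Its means were 1.74 in WT control, 1.50 in KO control, −0.03 in WT colitis and −1.21 in KO colitis, the last near the floor of −1.72. Hsd17b14 was listed in KO (−2.71) and not in WT (−1.77). Hsd3b7, a bile acid synthesis enzyme, fell in KO (−0.44) and was not listed in WT (−0.37). It shares 72.0% of its 100-base transcript windows with other annotated genes, so its reads may not all be its own.

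Of the xenobiotic P450 and flavin monooxygenase genes, in WT 11 of 13 fell and 0 rose, and in KO 4 fell and 0 rose. Of all genes 26.4% fell in WT and 33.6% in KO, so the KO count of falls lay near that share. The medians were −1.27 and −0.69. Cyp2c55, a colon P450 that oxidises arachidonic acid, was the most abundant member per length, at 10.59 log2 RPM per kilobase of exon in WT control. Its means were 11.58 log2 RPM in WT control, 11.69 in KO control, 9.81 in WT colitis and 9.60 in KO colitis. It was listed in KO (−2.09) and not in WT (−1.78). The summed level of the group went from 4111 to 1395 RPM in WT and from 4252 to 1394 RPM in KO, and Cyp2c55 alone made up 3071 RPM of the first of these. Without Cyp2c55 the sum went from 1040 to 499 RPM in WT and from 942 to 617 RPM in KO.

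A further 4 members of the group had colitis means more than 1 log2 unit higher in KO than in WT. Cyp2c69 averaged 4.15 log2 RPM in WT control, 4.23 in KO control, 0.60 in WT colitis and 1.84 in KO colitis, and it fell in both genotypes (−3.55 and −2.39). Cyp2c68, its neighbour on chromosome 19, averaged 6.83, 6.85, 5.25 and 6.41 in the same order. It fell in WT (−1.58), was not listed in KO (−0.44), and was listed as higher in KO than in WT in colitis (1.16). For Cyp2d12 the means were 5.79, 6.29, 4.11 and 5.53, and it fell in WT (−1.68) but was not listed in KO (−0.76). Cyp2f2, known for activating naphthalene in the lung, averaged 4.64, 4.58, 2.82 and 3.93, with a fall in WT (−1.81) and no listing in KO (−0.65). WT colitis was the lowest of the 4 means in each, which adds no support. The 4 genes were picked by their colitis difference, in a group where all 13 WT changes were negative. Of the 4, only Cyp2c68 was listed between genotypes in colitis. The control means of WT and KO differed by 0.50 in Cyp2d12 and by −0.05 to 0.08 in the others.

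Cyp3a13, a CYP3A enzyme of the mouse gut, differed between genotypes in the control groups, without DSS. Its means were 8.30 log2 RPM in WT control, 7.83 in KO control, 7.03 in WT colitis and 7.01 in KO colitis. It was listed as lower in KO control (−0.47) and fell with colitis in both genotypes (−1.27 and −0.82), and the colitis means differed by −0.02, not listed. Cyp2d9 was the other member listed as lower in KO control, with means of 5.26, 4.50, 4.58 and 4.84 and a genotype difference of −0.76. In colitis its difference was 0.26, not listed. Cyp2j13 was near the floor throughout: its WT control mean amounted to 4.93 reads and the other 3 groups lay under 3 reads. It was listed in WT as lower by at least 1.30-fold, and no fold is given in KO.

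The promoters of Cyp2c68 and Cyp2c69 are shown because these neighbours both ended lower in WT than in KO colitis and both hold the same letters. Promoter sequences came from RefSeq (GRCm38.p6), in which 67 of the 85 members were matched. A search of both strands ran from 250 bases before to 50 bases after the start site. It found CAAAGTCCA, letters bound by the HNF4 family of nuclear receptors, in 3 members, or 4.48% of 67. The share was 0.477% of 27025 promoters of all genes and 0.756% of 3703 promoters of the distinct genes of the 4 deposited tables. The third member was Hsd3b3, where the letters lay on the other strand from position 4 after the start site. In Cyp2c68 they began 77 bases and in Cyp2c69 75 bases before the start site. In a gapped alignment the pair agree at 232 of 250 upstream bases (92.8%), so they do not count as independent matches. Both sequences below run 5′ to 3′ on the minus strand, chr19:39741102-39741351 and chr19:39886770-39887019, with matches in capitals. The capitals CACGCTA in Cyp2c68 are the other strand of TNGCGTG, which is bound by the aryl hydrocarbon receptor, and at that place Cyp2c69 has no match.
Cyp2c68: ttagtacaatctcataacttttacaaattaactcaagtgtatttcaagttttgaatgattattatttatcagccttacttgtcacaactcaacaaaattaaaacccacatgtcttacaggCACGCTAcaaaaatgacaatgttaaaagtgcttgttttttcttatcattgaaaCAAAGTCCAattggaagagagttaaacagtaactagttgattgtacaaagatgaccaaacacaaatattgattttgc
Cyp2c69: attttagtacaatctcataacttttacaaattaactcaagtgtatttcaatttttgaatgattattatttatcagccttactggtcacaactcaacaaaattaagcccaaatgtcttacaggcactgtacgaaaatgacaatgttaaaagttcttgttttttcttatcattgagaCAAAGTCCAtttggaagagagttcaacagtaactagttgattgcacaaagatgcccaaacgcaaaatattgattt
Among all matched members TNGCGTG was found in 3 (4.48%), against 5.12% of all promoters and 6.86% of those of the distinct genes. The antioxidant response element TGACNNNGC was found in 10 (14.9%), against 12.5% and 14.5%. Direct repeats of AGGTCA spaced by 1 or 4 bases, which nuclear receptors bind, were found in 0 members. They are rare, at 0.0444% and 0.0111% of all promoters. A match is a description of letters and not a bound site. The transcripts themselves are also close. Of the 100-base windows of Cyp2c68 transcripts 19.8% occur in another gene, and for Cyp2c69 the share is 35.4%, most of it in Cyp2c40. Only uniquely mapped reads were kept, so reads from the shared parts may be missing from the means.

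**Figure D2:**
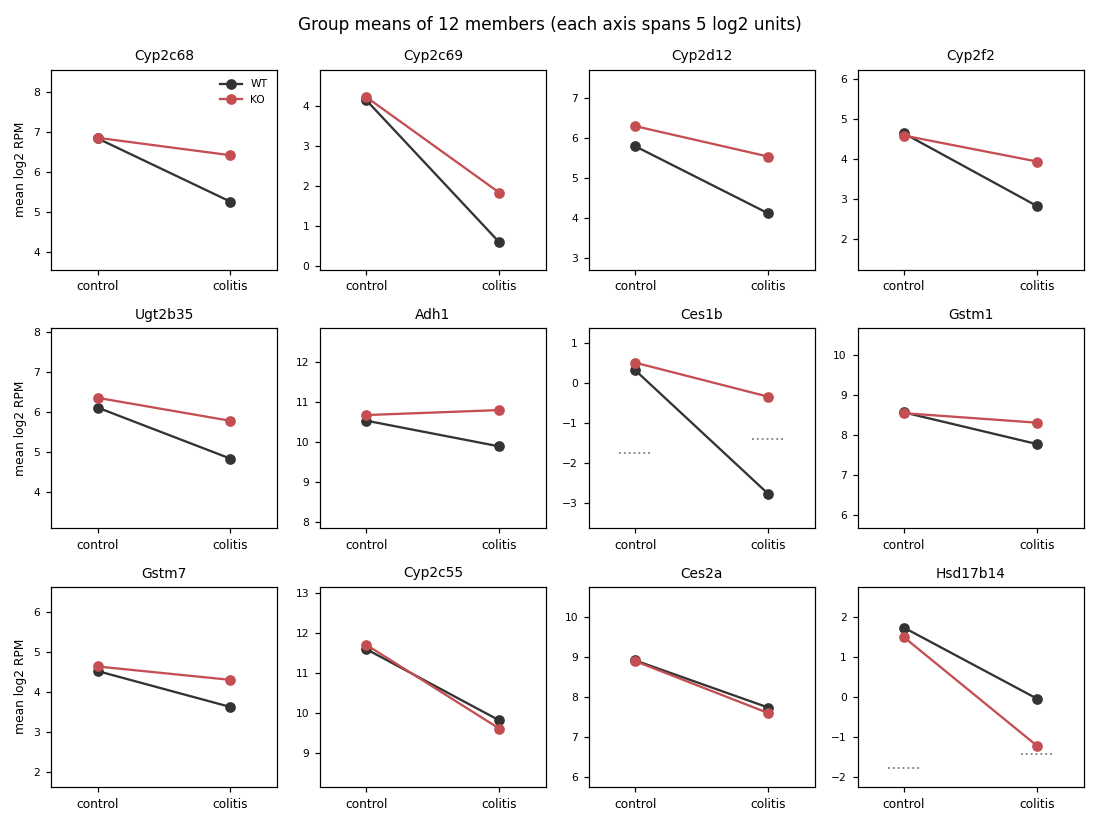
The authors' mean log2 RPM in control and colitis for 12 members, chosen after their values were seen to show the patterns described in the text. Black is WT, red is KO, every axis spans the same range, and grey dotted ticks mark 3 reads per library in the WT groups where they fall within the axis. In Cyp2c68, Cyp2c69, Cyp2d12, Cyp2f2, Ugt2b35 and Adh1 the WT line ends below the KO line, and in Hsd17b14 above it.

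Fatty acid and eicosanoid P450 genes moved in both directions. In WT 2 of 8 fell and 2 rose, and in KO 5 fell and 2 rose, with medians of −0.70 and −0.86. Cyp4f13 and Cyp4f16, fatty acid hydroxylases, fell in both genotypes (−0.73 and −0.92 in WT, −0.78 and −0.94 in KO). Cyp4f14, with the highest RPM of the group (8.38 log2 RPM in WT control), was listed in KO (−0.99) and not in WT (−0.87). Cyp4b1 averaged 3.50 in WT control, 3.57 in KO control, 2.40 in WT colitis and 1.76 in KO colitis, and was listed in KO (−1.81) and not in WT (−1.10). Cyp4f18, a leukotriene B4 hydroxylase of neutrophils, rose in both genotypes, by 1.72 in WT and 1.57 in KO. Cyp4f40 rose in WT alone (0.67, against 0.10 in KO).

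Carboxylesterases, which cut esters and many prodrugs, fell in each listed case except Ces2f. In WT 4 of 9 fell and 1 rose, and in KO 7 fell and 1 rose. Ces2c fell from 9.31 to 7.96 log2 RPM in WT and from 9.17 to 8.27 in KO. Ces2a was at 8.92 in WT control, 8.90 in KO control, 7.75 in WT colitis and 7.61 in KO colitis, and was listed in KO (−1.30) and not in WT (−1.18). Ces1g averaged 4.88, 5.68, 4.08 and 3.99 in the same order. Its KO control mean was 0.79 above WT control, not listed, and it fell in KO (−1.68) but was not listed in WT (−0.81). Ces1d, an enzyme of lipid breakdown, fell by 0.88 in WT and 1.25 in KO. Ces1b had few reads: its means were 12.6 reads in WT control, 13.8 in KO control, 1.17 in WT colitis and 7.75 in KO colitis. Its fall in WT was at least 3.31-fold, and the KO colitis mean was at least 2.10-fold above WT colitis, a difference that was not listed.

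Ces2f was the exception, with few reads: 6.46 in WT control, 4.34 in KO control, 18.2 in WT colitis and 26.9 in KO colitis. Its control means thus lay near the floor of 3 reads. It rose from −0.65 to 1.19 log2 RPM in WT and from −1.17 to 1.45 in KO, by 1.83 and 2.62, while the other 5 Ces2 genes beside it on chromosome 8 had negative changes in both genotypes, from −0.32 to −1.35 in WT and from −0.54 to −1.30 in KO. The 6 genes lie within 236 kb. The upstream 250 bases of Ces2c and Ces2f are shown because these genes on the plus strand, with Ces2e between them, moved in opposite directions. In a gapped alignment they agree at 158 of 250 bases (63.2%), where Ugt2b34 and Sult1d1, of different families, agree at 50.4%. The agreement with Ces2f varies among the Ces2 genes, from 51.2% for Ces2g, the next gene, to 64% for Ces2a. The Ces2c and Ces2f sequences lie at chr8:104846818-104847067 and chr8:104947106-104947355, and neither holds a match to the letters searched.
Ces2c: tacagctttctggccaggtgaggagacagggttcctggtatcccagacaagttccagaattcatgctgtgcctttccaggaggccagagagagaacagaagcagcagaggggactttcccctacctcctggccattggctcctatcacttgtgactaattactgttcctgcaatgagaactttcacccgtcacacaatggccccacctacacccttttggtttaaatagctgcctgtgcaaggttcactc
Ces2f: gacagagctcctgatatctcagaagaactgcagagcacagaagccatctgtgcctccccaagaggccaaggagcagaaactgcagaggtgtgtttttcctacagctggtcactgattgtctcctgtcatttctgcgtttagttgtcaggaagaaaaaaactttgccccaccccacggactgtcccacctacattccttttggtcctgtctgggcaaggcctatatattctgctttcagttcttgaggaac
Ces2c also shares 13.6% of its transcript windows with other genes, most of it with the pseudogene Ces2d-ps.

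**Figure D3:**
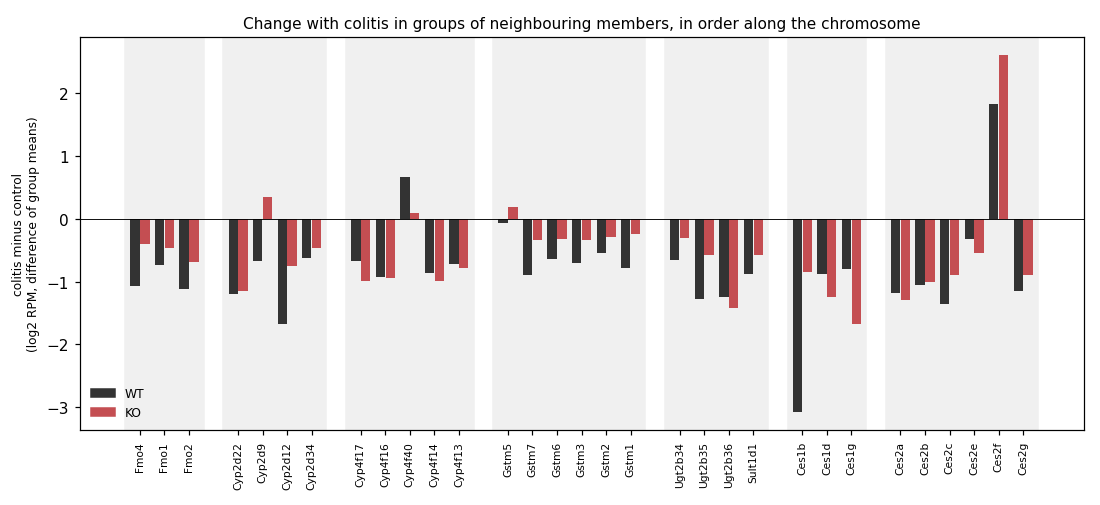
Colitis minus control in log2 RPM for members that lie in groups of at least 3 with no gap over 500 kb, in chromosome order, each grey block being 1 group. Black bars are WT and red bars KO, and the WT bar of Ces1b ends at a colitis mean under 3 reads. The bars of Ces2f, whose control means were 6.46 (WT) and 4.34 (KO) reads, rise to 1.83 and 2.62 inside a block of negative bars. The bars of the Gstm block are shorter in KO for 5 of its 6 genes.

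UDP-glucuronosyltransferases, which attach glucuronic acid, gave 3 members, all of the Ugt2b family on chromosome 5. Ugt2b34 was the most abundant at 9.79 log2 RPM in WT control, 9.87 in KO control, 9.13 in WT colitis and 9.56 in KO colitis, and it fell in WT (−0.66) with no listing in KO (−0.31). Ugt2b35 averaged 6.11, 6.36, 4.84 and 5.78 in the same order. It fell in WT (−1.28), was not listed in KO (−0.58), and with Cyp2c68 was one of the 2 members listed as higher in KO than in WT during colitis (0.95). Ugt2b36 was listed as lower in KO (−1.41) and not in WT (−1.25). Ugdh, which makes the glucuronic acid donor, fell from 9.90 to 8.58 log2 RPM in WT and from 9.93 to 9.13 in KO.

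The cytosolic sulfotransferases fell throughout: 4 of 4 were lower in both genotypes. Sult1a1, a phenol sulfotransferase, averaged 9.23 log2 RPM in WT control, 9.30 in KO control, 7.93 in WT colitis and 8.53 in KO colitis, a fall of 1.30 and 0.77. Sult1d1, which acts on catecholamines, fell by 0.88 and 0.58. Sult1c2 fell by 1.04 in WT and 1.07 in KO. Sult4a1, best known from brain, averaged 4.05 log2 RPM in WT control, 3.89 in KO control, 3.19 in WT colitis and 2.75 in KO colitis. Papss1, which makes the sulfate donor, also fell, by 0.87 in WT and 0.49 in KO. It was named after its values were seen.

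Glutathione transferases attach glutathione to reactive compounds. In WT 6 of 9 fell and 1 rose, and in KO 1 fell and 2 rose. Of these, 6 members belong to the mu family, neighbours within 122 kb of chromosome 3. Gstm1, the most abundant, averaged 8.56 log2 RPM in WT control, 8.54 in KO control, 7.77 in WT colitis and 8.30 in KO colitis. Gstm7 averaged 4.52, 4.64, 3.62 and 4.30. Both fell in WT (−0.79 and −0.90) and were not listed in KO (−0.24 and −0.33). Gstm3 and Gstm6 showed −0.70 and −0.65 in WT, listed, against −0.33 each in KO, not listed. All 6 mu genes were higher in KO than in WT during colitis, by 0.25 to 0.68 with a median of 0.52, and 0 of these differences were listed. In control the 6 differences ran from −0.02 to 0.30. Related sequence limits how far they count as separate genes, and Gstm3 shares 13.8% of its transcript windows. Gstt1, of the theta family, fell in WT (−0.77) and was not listed in KO (−0.56). Gstp3, of the pi family, rose in both genotypes, from 2.06 to 3.55 log2 RPM in WT and from 2.25 to 4.08 in KO.

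Among the aldehyde and carbonyl enzymes, 4 of 6 fell and 1 rose in WT, while 1 fell and 2 rose in KO. Aldh2, the mitochondrial acetaldehyde dehydrogenase, averaged 10.81 log2 RPM in WT control, 10.94 in KO control, 9.98 in WT colitis and 10.38 in KO colitis. It fell in WT (−0.84) and was not listed in KO (−0.56). Akr1b7, a reductase of the aldose reductase family, fell in both genotypes, from 4.19 to 1.65 in WT and from 4.37 to 2.44 in KO. Aldh3a1 fell in WT (−1.90) and was not listed in KO (−1.41). Aldh6a1, of valine breakdown, fell in WT (−0.77, against −0.45 in KO). Aldh3b1 rose by 0.93 in WT and 0.49 in KO, and Aldh9a1 rose in KO (0.29; 0.26 in WT, not listed). Maob, a monoamine oxidase from the list of other enzymes, fell from 6.19 to 4.82 log2 RPM in WT and from 6.19 to 5.63 in KO, and was listed as higher in KO than in WT during colitis (0.81).

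Of 16 ABC transporters, 6 fell and 3 rose in WT, and 10 fell and 5 rose in KO. Abcb1a, the drug pump P-glycoprotein, averaged 10.45 log2 RPM in WT control, 10.65 in KO control, 9.08 in WT colitis and 9.37 in KO colitis, and fell by 1.38 and 1.28. It shares 13.4% of its transcript windows, most with Abcb1b. Abcg2, another drug pump, fell by 1.00 in WT and 0.84 in KO. Abcc2, which exports conjugates, fell in WT (−1.06) and was not listed in KO (−0.62). Abca8a and Abca8b fell by 1.54 and 1.32 in WT and by 0.85 and 0.94 in KO. Abcg1, which exports cholesterol, rose by 0.87 and 1.09, and Abca1, its partner in that role, rose in KO (0.30) and was not listed in WT (0.43). Abca13 had the largest rise of the transporters in both genotypes, from −0.63 to 1.97 log2 RPM in WT and from −0.12 to 1.50 in KO. Abcg3 rose by 1.09 and 1.10. Abce1, a ribosome recycling factor that carries no cargo, rose in KO (0.39) and not in WT by the listing (0.12).

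Last, the genotypes were set side by side. KO minus WT had a median of 0.03 over the 85 members in control, and 2 of them (2.35%), Cyp2d9 and Cyp3a13, were listed, both lower in KO, against 0.89% of all 5171 genes in either direction and 0.367% lower. Differences of at least 0.5 in control were counted for 3 members in each direction (3.53%), against 4.04% of all genes higher and 3.46% lower in KO. In colitis the median was 0.06 and 2 members (2.35%), Cyp2c68 and Ugt2b35, were listed, both higher in KO, against 1.08% of all genes in either direction and 0.696% higher. There, 16 members (18.8%) were at least 0.5 higher in KO, against 5.43% of all genes, and 5 (5.88%) at least 0.5 lower, against 10.3%. The 5 were Aldh1a3, Cyp4b1, Cyp7b1, Hsd17b14 and Hsd3b2. KO exceeded WT in colitis for 50 of the 85 members (58.8%), against 47.4% of all genes, whose median was −0.01. These shares of all genes are not like for like, since 52.9% of members but 26.4% of all genes fell in WT. A low WT colitis mean helps place a gene among those and also raises KO minus WT. Among genes that fell in WT, 33.3% of members and 13.1% of all genes were at least 0.5 higher in KO. KO exceeded WT for 86.7% and 65.6% of them. Neither share tests a difference between genotypes. By role, KO exceeded WT in colitis for 10 of 13 xenobiotic P450 and flavin monooxygenase genes (median 0.21), 8 of 9 glutathione transferases (0.50), 3 of 4 retinoid genes (0.30) and 4 of 6 aldehyde and carbonyl enzymes (0.29). It did so for 3 of 8 fatty acid P450 genes (−0.05), 4 of 9 carboxylesterases (−0.08), 7 of 13 steroid genes (0.01), 2 of 3 UDP-glucuronosyltransferases (0.42), 2 of 4 sulfotransferases (−0.12) and 7 of 16 ABC transporters (−0.02). The 8 other retinoid-handling genes in the tables stood the other way, with 7 of 8 lower in KO colitis and a median of −0.40. The colonocyte markers differed between the genotypes in colitis in both directions, 4 of 7 higher in KO: Slc26a3 by 0.59 and Aqp8 by 0.59, while Car1 was 0.81 and Guca2a 0.70 lower. All 5 fibroblast markers in the tables were lower in KO colitis, with differences from −0.63 to −0.18, and their sum was 3670 RPM in KO against 4935 RPM in WT. The part of these markers in the difference between genotypes was not tested. Whether the response to colitis differed between WT and KO was itself not tested for any gene, since values of single libraries were not used, and a listing in 1 genotype alone does not show it.

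**Figure D4:**
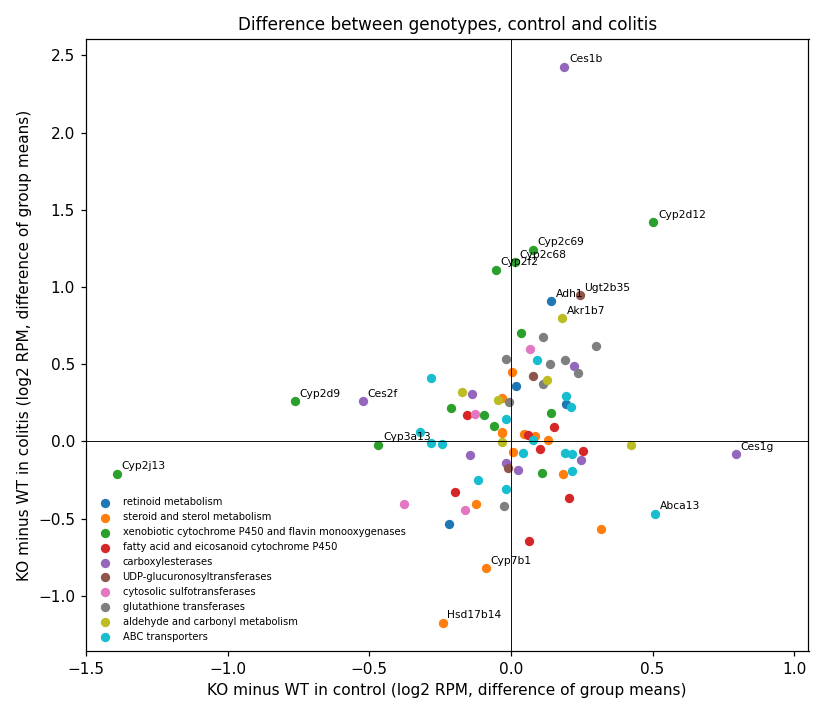
KO minus WT in control (horizontal axis) against KO minus WT in colitis (vertical axis), both in log2 RPM as differences of the authors' group means, with 1 point for each of the 85 members coloured by role. Points spread further along the vertical axis, up to Ces1b at 2.43 with a WT colitis mean under 3 reads. The lowest is Hsd17b14 at −1.18, with a KO colitis mean near the floor of 3 reads.

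Nuclear receptors and cofactors that control such genes were taken from a list of 21, of which 7 were in the tables. In WT 5 fell and 1 rose, and in KO 4 fell and 1 rose. Ppara, the fatty acid receptor, went from 4.12 to 2.97 log2 RPM in WT and from 4.14 to 3.08 in KO. Hnf4a, an epithelial nuclear receptor, was listed as lower in colitis for each genotype (−0.51 in WT, −0.35 in KO). Nr1i2, the pregnane X receptor, fell in KO (−0.35) and was not listed in WT (−0.21). Both were named after their values were seen. Letters bound by the HNF4 family were found in the Cyp2c68, Cyp2c69 and Hsd3b3 promoters. Whether the level of Hnf4a bears on these genes was not tested. Of 26 other enzymes on a second list 10 were in the tables, 6 lower and 1 higher in WT and 3 lower and 4 higher in KO.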

How the data were processed

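The authors mapped reads of whole colon RNA to GRCm38 with HISAT2 2.1.0, kept uniquely mapped reads, removed reads over ribosomal RNA, counted reads over exons in SeqMonk and ran DESeq2 for each comparison of groups. The labels describe the reads as single-end and the study's methods as paired-end. The deposited tables hold, for genes under an adjusted p-value of 0.05, the authors' mean log2 RPM of each of the 4 groups, without correction for length, together with an FDR column that was not used. The means of a gene did not differ between tables (largest difference 0). The counts by sample in the study's supplement were not used.

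Differences of means were taken with pandas 2.3.3. Library sizes came from the lowest means, in which 0.9 read had stood in for a count of 0. Low means fell on whole-read steps (share 1 in each group), and floors cover counting error only. The deposited tables give group means only, so no test was run on them, and tests on single libraries were not made. Levels per kilobase used GENCODE exon lengths, and 74 of the 85 members had identical coordinates there. Shared transcript windows were counted over 100 bases in the GENCODE transcripts. Promoter windows covered 250 bases before to 50 after each start site.

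The members, roles and lists were chosen with earlier results of these data known. Named genes were the members listed between genotypes, all retinoid and steroid members, in each other role the 5 largest rises and the 5 largest falls and the most abundant member, members at the floor, and partners changed by at least 1, of which 1 is not reported here. This named 70 members, and the other 15 are given by counts and in the plots. Hsd11b2 was in none of the 4 tables. Alternatives were a size threshold of 1, leaving out or raising means at the floor, leaving out ABC transporters, centring on all genes, other member subsets and means for medians.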

Additional observations from a re-analysis of the deposited data

How the results depend on the processing

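Of 91 alternatives over 29 results, 86 stayed within the tolerance (0.2 log2 for a median, 1.5-fold for a count). Of these, 2 small medians changed sign when only members in the KO colitis table were counted. The median KO minus WT difference in colitis went from 0.06 to −0.02, and that of the colitis change from 0.10 to −0.05. With only members in the WT colitis table they were 0.23 and 0.27, so both depend on which table selects the members. No direction is read from either median. Part of the 86 was fixed in advance. Centring shifts a median by at most 0.19, which is under the tolerance of 0.2. Raising means at the floor can alter only Ces1b and Cyp2j13, so roles without them could not move. Requiring a change of at least 1 left 23 members lower and 9 higher in WT, and 17 lower and 10 higher in KO. The mean in place of the median gave −0.55 for the WT change. Centring on the median of all genes shifts WT changes by 0.13 and KO changes by 0.19, which turns the sign of the small positive changes of Abce1 in WT and of Adh1, Cyp4f40 and Gstm5 in KO. No paired analysis was possible because the tables give group means, in which the replicate numbers of the labels do not appear, and for the same reason no replicate could be left out. Counts of listed genes rest on groups of 3 and 5 libraries and on the depth of each library, so an unlisted gene is not an unchanged one, and a gene in 1 colitis table alone was not tested between genotypes.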
